A study of Mus musculus with 6 samples.

Results

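Matricellular proteins are secreted into the extracellular matrix, where they modulate how cells attach and signal rather than build the scaffold. The genes described here are Tnc (tenascin C), Thbs1 and Thbs2 (thrombospondins), Postn (periostin), Sparc (osteonectin), Spp1 (osteopontin) and Smoc2, together with Reln (reelin) and Fn1 (fibronectin). They were chosen by name, and all probes carrying each name were taken from whole-kidney expression arrays at E18.5, shortly before birth. Of the 9 genes, 8 had a probe, and these 25 probes were among 45273 on the array. Spp1 was not analysed here, because no probe carried its name alone in the annotation used.

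The arrays compared FoxD1GC;Dicerfl/fl kidneys with kidneys of Cre-negative littermates in 3 litters, with 1 pool of 2 embryos per genotype and litter and thus 3 pools per genotype. The mutant loses Dicer, the nuclease that trims miRNA precursors, through a Cre tagged with eGFP whose gene sits at FoxD1, so that stromal cells of the kidney and the cells they give rise to are affected. The mutant pools carry the Cre allele at FoxD1 as well as the Dicer deletion, and these cannot be told apart. The strain of the pooled embryos and the Dicer alleles of the controls are not stated in the labels.

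Fibronectin is an adhesive glycoprotein that forms fibrils and is bound by integrins, and matricellular proteins often bind the same integrins, CD44 or LRP1. Thrombospondins and SPARC are known for restraining vessel growth, and tenascin C for its expression in developing mesenchyme. Reelin is a large secreted glycoprotein best known for positioning neurons in the brain, where it binds the receptors VLDLR and LRP8 and leads to phosphorylation of the adaptor DAB1.

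Reln and Thbs2 were the members with a lower transcript level in the mutant, and the 250 bases upstream of their RefSeq start sites are given to show how unlike their promoters are. Both lie on the minus strand of GRCm38.p6, at chr5:22344706-22344955 for Reln and chr17:14694263-14694512 for Thbs2. Capitals mark matches, on either strand, to 3 motifs often found upstream of genes. The GC box was searched as GGGCGG. The second motif was the 5 letters CCAAT themselves. The TATA motif was searched as TATAAA.
Reln: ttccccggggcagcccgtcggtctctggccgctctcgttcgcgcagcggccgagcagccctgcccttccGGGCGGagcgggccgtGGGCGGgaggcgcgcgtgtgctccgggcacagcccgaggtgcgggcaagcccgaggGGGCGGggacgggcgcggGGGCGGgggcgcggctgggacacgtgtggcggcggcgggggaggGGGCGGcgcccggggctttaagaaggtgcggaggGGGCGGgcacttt
Thbs2: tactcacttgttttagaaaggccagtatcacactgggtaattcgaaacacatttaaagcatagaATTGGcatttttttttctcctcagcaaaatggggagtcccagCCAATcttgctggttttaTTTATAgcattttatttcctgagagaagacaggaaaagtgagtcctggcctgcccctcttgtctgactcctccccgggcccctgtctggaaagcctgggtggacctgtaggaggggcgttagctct
The Reln promoter was 80% G and C and held 6 GC boxes and no CCAAT or TATA match. The Thbs2 promoter was 46.8% G and C, near the median of 52.4% over 32851 promoters, and held 2 CCAAT matches, 1 TATA match and no GC box. That TATA match lay at -126 from the start and in reverse orientation, read as TTTATA. Positions over all promoters were counted for forward TATAAA only, which was most frequent in the 25 bases from -50. A GC box occurred in 32.7% of all promoters, CCAAT in 33.8% and TATAAA in 12.4%. Neither promoter held an AP-1 motif (TGANTCA), which occurred in 6.75%. These matches describe the letters and do not show binding.

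Intensities are given as deposited, on a linear scale, and levels as background-corrected, quantile-normalized log2 values. A probe was detected where its p-value against the negative-control beads of its array was under 0.01, and it was tested where at least 3 of the 6 arrays detected it. This held for 16899 probes and 9921 genes. Between 16154 and 17051 probes were detected per array. Calls were made with limma, with litter as a block and Benjamini-Hochberg adjustment over all tested probes, and a gene counts as called where its brightest tested probe had an adjusted p below 0.05. Of all genes tested, 552 or 5.56% were called, with 3.15% lower and 2.41% higher in the mutant. The median change over genes was 0.01 on the log2 scale, where changes are mutant minus control with their standard error (SE).

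Dicer1, the targeted gene, was 0.63 ± 0.13 lower on the log2 scale at 1 detected probe (adjusted p = 0.045) and changed by -0.28 ± 0.11 at the other (adjusted p = 0.24), and whether either probe lies in the deleted exon was not established. The Y-linked genes Eif2s3y and Kdm5d were detected in both litter 1 pools, in the litter 2 control pool and in no other pool. The pools of litter 2 therefore differed in this signal as well as in genotype, while those of litters 1 and 3 did not.

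Of the 5 member genes tested, 2 were called, Reln and Thbs2, both lower. The other 3 were Tnc, Sparc and Fn1. Of the 25 member probes, 9 were tested and 3 called, all lower, the third being the dimmer tested probe of Tnc. Among all tested probes 4.87% were called, 2.82% lower and 2.05% higher. In the plot of deposited intensities, 15 of the member probes were detected on no array.

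**Figure D1:**
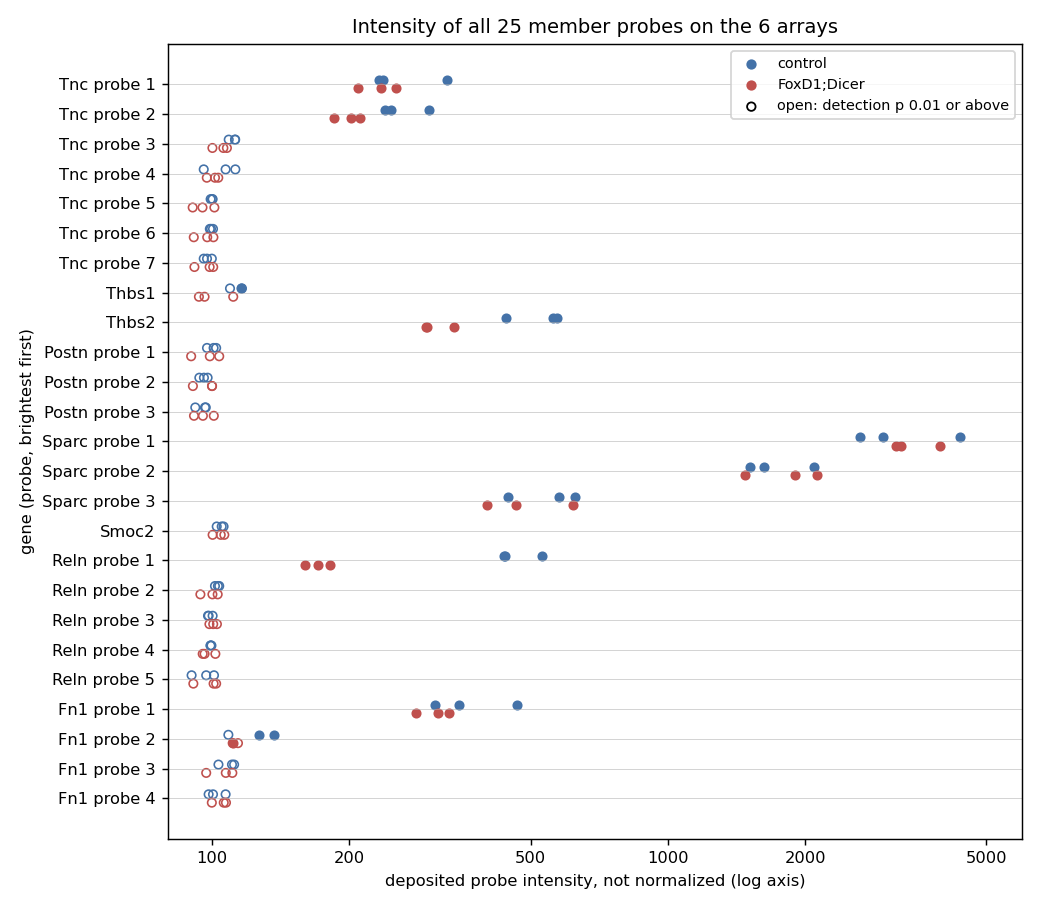
Deposited intensity of each of the 25 member probes on the 6 arrays (log axis; blue, control pools; red, FoxD1GC;Dicerfl/fl pools; open symbols, detection p of 0.01 or above). Reln and Thbs2 have separate groups at their brightest probe, as has Tnc at its second probe. The 3 Postn probes and the Smoc2 probe stay near background on all arrays.

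Reln showed the largest difference of the members. Its intensity in the control pools of litters 1, 2 and 3 was 437.1, 438.7 and 530.4, and in the mutant pools 170.4, 181.1 and 159.7. Every mutant pool was below every control pool. The groups separated in this way, in this direction, at 12.1% of all genes tested. The normalized levels were 8.46, 8.58 and 8.71 in control pools and 6.51, 6.42 and 6.46 in mutant pools. The control pools varied by 0.13 (SD, n = 3) and the mutant pools by 0.05 (SD, n = 3), far less than the gap between them. The difference within litters was -1.95, -2.16 and -2.24. The fitted change was -2.12 ± 0.11 (95% interval -2.38 to -1.85; adjusted p = 0.00096 in limma), a 4.34-fold reduction. Only 9 of the 9921 genes had a more negative change. Without background correction the change was -1.44, and in the authors' log2 values it was -1.24, both called. The signal did not vanish, as all 3 mutant pools detected the probe. In whole-kidney RNA, fewer Reln-expressing cells and less Reln RNA per cell cannot be told apart. The other 4 Reln probes were detected on no array and give no second measurement.

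Thbs2 encodes a secreted thrombospondin and was read by 1 probe. Its intensity was 571.3, 441.2 and 559.2 in the control pools of litters 1 to 3 and 339, 296.7 and 294.8 in the mutant pools. The groups did not overlap. Normalized levels were 8.91, 8.59 and 8.80 against 8.08, 7.54 and 7.89, so that litter 2 was lowest in both genotypes. The difference within litters was -0.83, -1.05 and -0.90. The fitted change was -0.93 ± 0.11 (95% interval -1.18 to -0.68; adjusted p = 0.0060 in limma), a 1.91-fold reduction. Without litter 2 the change was -0.87 and no longer passed, with an adjusted p of 0.094, while the other 12 alternatives in processing kept the call with adjusted p of at most 0.026. Reln kept its call without litter 2, with -2.10 and an adjusted p of 0.030, the highest over its alternatives.

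Thbs1, the other thrombospondin of the set, had 1 dim probe. Its intensity was 109.4, 115.9 and 116.2 in control pools and 96.2, 111.2 and 93.5 in mutant pools. It passed the detection bound only in the litter 2 control pool, with a detection p of 0.00962 beside 0.0641 and 0.01709 in the other two control pools. It was therefore not tested, and no level is drawn from it.

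**Figure D2:**
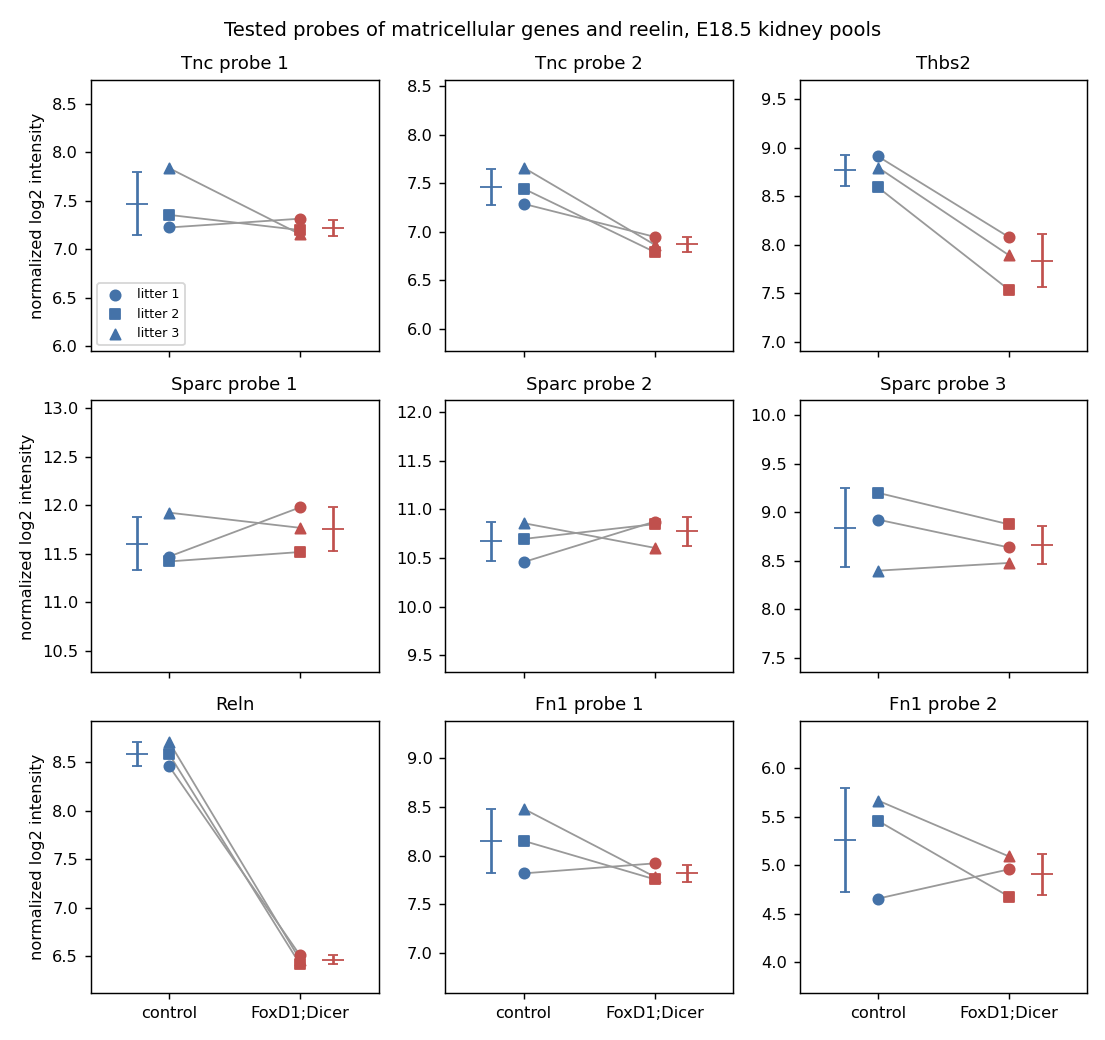
Normalized log2 intensity of the 9 tested member probes in control (blue) and FoxD1GC;Dicerfl/fl (red) pools, with pools of a litter joined by a line and the mean ± SD of each group (n = 3) beside the points. All 3 litters run downwards for Reln, Thbs2 and the second Tnc probe, while litter 1 runs upwards for the first probes of Tnc, Sparc and Fn1.

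Tnc encodes tenascin C and had 7 probes, 2 of which were tested and gave different calls. The probe that is brightest by its mean over all 6 arrays sets the call for the gene. The 2 probes had means of 7.47 and 7.46 in control pools and of 7.22 and 6.87 in mutant pools. The call for Tnc therefore depends on which probe is taken. At the brightest probe the levels were 7.23, 7.36 and 7.84 in control pools and 7.32, 7.20 and 7.16 in mutant pools, so that the groups overlapped. The fitted change was -0.25 ± 0.16 (95% interval -0.63 to 0.13, adjusted p = 0.44 in limma). It was -0.033 without litter 3, -0.42 without litter 1 and -0.42 as the mean of both probes, none of them called. At the dimmer probe the levels were 7.29, 7.44 and 7.66 against 6.95, 6.79 and 6.87, with every mutant pool below every control pool. Its change was -0.59 ± 0.12 (95% interval -0.89 to -0.30; adjusted p = 0.047), a 1.51-fold reduction. The change was -0.38 without background correction and -0.31 in the authors' log2 values, both called. It was not called without litter 2 (-0.57, adjusted p = 0.30), without litter 3 (-0.50, adjusted p = 0.10), where all probes were tested (-0.59, adjusted p = 0.11) or with median scaling over tested probes (-0.59, adjusted p = 0.059). Its adjusted p over all alternatives ran from 0.017 to 0.30. The intervals of the 2 probes overlap between -0.63 and -0.30, and the difference between the probes was not tested. The other 5 Tnc probes were detected on no array. By immunostaining at E18.5, the study reported less tenascin, in a disorganized pattern, between the nephron progenitors of mutant kidneys. That is protein in the cortical stroma, whereas the arrays read RNA of the whole kidney.

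Fn1 encodes fibronectin and did not pass the test. Its brightest probe gave levels of 7.82, 8.15 and 8.48 in control pools and 7.92, 7.76 and 7.78 in mutant pools. The mutant pool was higher by 0.10 in litter 1 and lower in the other litters, by -0.40 and -0.70. The fitted change was -0.33 ± 0.16 (95% interval -0.72 to 0.06, adjusted p = 0.32 in limma). It was -0.55 without litter 1 and -0.15 without litter 3, neither called. A second, dim probe detected on 3 arrays gave -0.35 ± 0.21 (adjusted p = 0.40), and the remaining 2 were not detected.

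Sparc encodes a collagen-binding matricellular protein and was detected on every array by all 3 of its probes. At the brightest, the levels were 11.47, 11.42 and 11.92 in control pools and 11.98, 11.52 and 11.77 in mutant pools, and the groups overlapped. The mutant minus control difference was 0.51, 0.10 and -0.16 in litters 1, 2 and 3. The fitted change was 0.15 ± 0.15 (95% interval -0.20 to 0.50, adjusted p = 0.63 in limma), and without litter 1 it was -0.029. The other probes gave 0.10 ± 0.15 and -0.18 ± 0.12, with adjusted p of 0.75 and 0.48. The interval of the brightest Sparc probe does not reach the change of Thbs2.

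**Figure D3:**
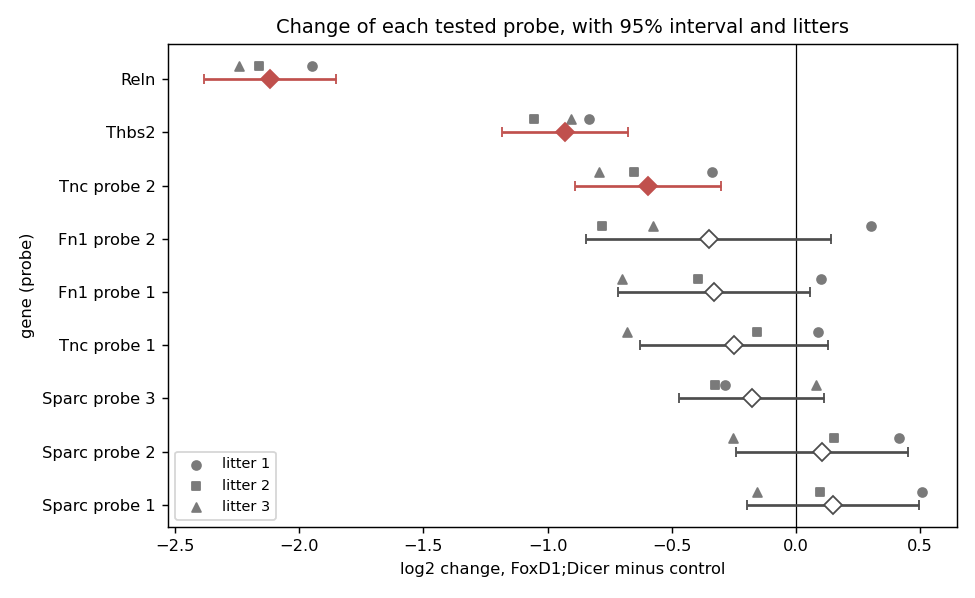
Log2 change (FoxD1GC;Dicerfl/fl minus control) of the 9 tested member probes from limma, with 95% intervals as bars and the difference within each litter as grey symbols; filled red diamonds have an adjusted p under 0.05. Reln lies at -2.12, apart from the 6 probes whose intervals include 0. Thbs2 lies at -0.93, and its interval (-1.18 to -0.68) overlaps those of both Fn1 probes.

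Postn, a matricellular protein of connective tissue, and Smoc2, a relative of SPARC, were not detected. The 3 Postn probes had intensities between 89.9 and 103.6, and the Smoc2 probe between 100.2 and 106.3, beside array medians of 100.3 to 107.6. Their change in the mutant could not be measured with these probes.

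A list of 31 other matricellular genes placed the members among their relatives. It had 14 genes tested, of which 1 was higher, 0 lower and 13 not called, with a median change of -0.06 beside 0.01 over all genes. The share called was 7.14%, near the 5.56% of all genes. The one called was Ccn4, a Wnt-induced secreted member of the CCN family. Its levels were 7.95, 7.97 and 7.98 in control pools and 8.80, 8.73 and 8.71 in mutant pools, a change of 0.78 ± 0.10 (adjusted p = 0.0093 in limma). The groups were clearly apart, and its dimmer probe gave 0.51 with an adjusted p of 0.042. Without litter 2 the adjusted p of Ccn4 was 0.11, and under the other alternatives it was at most 0.038. The next in size were not called. Cthrc1, a secreted protein with a collagen triple helix repeat, gave 0.47 ± 0.10 (adjusted p = 0.057) and was called under 5 alternatives, which were no replicate block, no background correction, detection on all 6 arrays, an offset of 50 and the mean over probes. Spock2, a proteoglycan related to SPARC, gave 0.36 ± 0.11 (adjusted p = 0.14). Ccn1, another CCN protein, gave -0.46 ± 0.12 (adjusted p = 0.090), with -0.15 and -0.18 at its dimmer probes. Several of the relatives, among them Tnr, Tnn, Thbs4 and Comp, were detected on no array.

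The receptors through which these proteins act gave 3 called genes among 13 tested, all higher, with a median change of 0.11. That share was 23.1%, beside 2.41% of all genes called higher. Cd44, the hyaluronan receptor that also binds osteopontin, had levels of 5.68, 5.86 and 6.04 in control pools and 6.79, 7.38 and 6.85 in mutant pools. It rose by 1.14 ± 0.15 (adjusted p = 0.0093 in limma), and its dimmer probe by 0.98 (adjusted p = 0.0068). At the brightest probe the change was 0.59 without background correction and 0.46 in the authors' log2 values, both called. Every mutant pool lay above every control pool, as it did at 13.8% of all genes. Itgb5, an integrin beta chain that pairs with alpha V, had levels of 9.62, 9.61 and 9.77 against 10.49, 10.16 and 10.19 and rose by 0.61 ± 0.12 (adjusted p = 0.042). Itgav, the alpha V chain, rose by 0.86 ± 0.12 at its brightest probe (adjusted p = 0.012), but its 2 dimmer probes gave 0.11 and 0.10 (adjusted p = 0.66 and 0.78). At the brightest probe it was 0.38 without background correction and 0.28 in the authors' values, both called. The call for Itgav therefore rests on 1 of 3 probes. Lrp1, an endocytic receptor for thrombospondins, gave -0.21 ± 0.13 (adjusted p = 0.44). Without litter 2, Cd44, Itgav and Itgb5 changed by 0.96, 0.96 and 0.64 but were not called, with adjusted p of 0.093, 0.092 and 0.23. Only 44 genes of the whole array were called in that fit. Without litter 1, Itgb5 changed by 0.49 with an adjusted p of 0.14.

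Macrophage markers moved in the same direction as Cd44, which leukocytes also express. All 8 macrophage and leukocyte markers tested were called higher, beside 2.41% of all genes, with a median change of 1.20. Their summed normalized intensity was 568 to 645 in control pools and 1305 to 1326 in mutant pools, and Ptprc and Itgam were detected on no array. Their part in the rise of Cd44 was not tested.

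**Figure D4:**
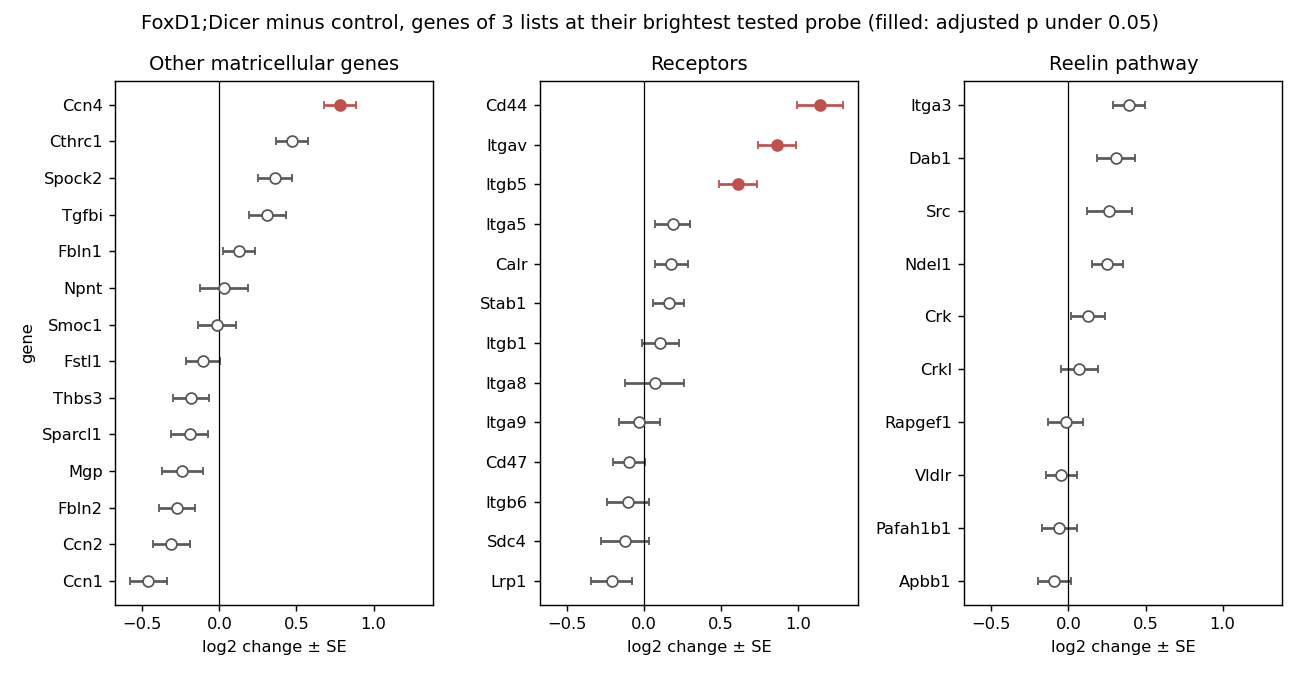
Log2 change ± SE from limma for every tested gene of 3 lists, each at its brightest tested probe (filled red, adjusted p under 0.05). Ccn4 at 0.78 and the receptors Cd44, Itgav and Itgb5 are the called genes, and no gene of the reelin pathway is.

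The pathway downstream of reelin gave no called gene among 10 tested in limma, with 3 at an unadjusted p under 0.05 and a median change of 0.10. As 5.56% of all genes were called, no call among 10 does not set this list apart. Vldlr, a reelin receptor, had levels of 10.16, 10.31 and 9.91 in control pools and 10.12, 10.26 and 9.87 in mutant pools. Its change was -0.05 ± 0.10 (95% interval -0.28 to 0.19, adjusted p = 0.85), an interval far from the change of Reln. Itga3, an integrin chain that binds reelin, gave 0.39 ± 0.10 (adjusted p = 0.094), and Dab1, the adaptor, 0.31 ± 0.12 (adjusted p = 0.24), with -0.08 at its dimmer probe. Src, of the kinase family that phosphorylates DAB1, gave 0.27 ± 0.15 and Ndel1, a cytoskeletal partner of LIS1, 0.25 ± 0.10, with adjusted p of 0.38 and 0.24. None of these passed. The second receptor, Lrp8, passed the detection bound on at most 1 array and was not tested. Itga3 was called without background correction, with an offset of 50, with an intensity trend and in the authors' log2 values, the last of which also called Ndel1.

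The level of Reln across the 6 pools was most like that of Reep6, Nts, Ntn3, Idi1 and Castor2, with Pearson r between 0.995 and 0.999 over the 6 arrays. These arrays fall into 2 genotypes, so that any gene with a large and even change correlates in this way, and r is given as a description. Nts, the neurotensin precursor, changed by -2.58 and Ntn3, a netrin, by -1.07, both by more than 1 on the log2 scale. Reep6, Castor2 and Idi1 changed by -0.76, -0.75 and -0.59.

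Some markers of stromal descendants differed between the same pools in which the members were measured. The marker lists of all cell types were chosen with earlier results of these data known. Their counts are therefore a description and give no independent evidence on the cell types. Of all genes tested, 3.15% were called lower and 2.41% higher. Of 13 stroma and mesenchyme markers tested, 3 were lower (Col1a1, Pdgfra and Penk) and 10 were not called, with a median of -0.36. Their summed normalized intensity was 8967 to 10641 in control pools and 7104 to 8816 in mutant pools, and none of them went undetected. Meis1 and Dcn were not called at their brightest probes but were lower at their dimmest. The changes there were -0.74 and -0.83 (adjusted p = 0.020 and 0.026 in limma). The middle Dcn probe and the dimmer probes of Meis2 and Lum were not called. Of 11 pericyte, mesangium and smooth muscle markers, 4 were lower (Acta2, Cspg4, Notch3 and Pdgfrb) and 7 were not called. The change was positive for 3 of the 11, with a median of -0.27 over the list. The sums were 10094 to 10969 against 4022 to 7636. Cnn1 was detected on no array. Most of that sum was Acta2, the smooth muscle actin, alone at 8459 to 9398 against 2624 to 6093. Without it the sums were 1551 to 1635 and 1360 to 1543. By litter, the median change was 0.04, -0.35 and -0.67 over this list and -0.32, -0.47 and -0.45 over the stroma and mesenchyme list. The 4 called pericyte and smooth muscle genes were lower in every litter, least so in litter 1. The call itself favours genes that agree between litters. In litter 1, Acta2 differed by -0.63, Notch3 by -0.62, Cspg4 by -0.41 and Pdgfrb by -0.36. Of the genes not called, Gata3 was lower there (-0.56). Itga8, Myh11, Des, Tagln, Mcam and Rgs5 were higher there, by 0.65, 0.62, 0.51, 0.41, 0.19 and 0.04. Acta2, Pdgfrb and Cspg4 were lowest in litter 2 (-1.75, -1.17 and -0.72) and Notch3 in litter 3 (-1.05). Among the members, the mutant minus control difference of Reln and of both tested Tnc probes was highest in litter 1 and lowest in litter 3. The same order held for the differences of the brightest Fn1 probe and of the first and second Sparc probes. The difference of Thbs2 was lowest in litter 2 (-1.05), as was that of the second Fn1 probe (-0.78). The dimmest Sparc probe was lowest in litter 2 (-0.32) and highest in litter 3 (0.08). The part of these cell types in the changes of the members was not tested. Foxd1 itself changed by 0.04 ± 0.22 (adjusted p = 0.95 in limma), with differences of -0.61, 0.10 and 0.62 in litters 1, 2 and 3. The study itself reported less FoxD1 transcript in E18.5 mutant kidneys by quantitative PCR.

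Other cell types gave a mixed picture, beside 3.15% of all genes called lower and 2.41% called higher. All 7 proximal tubule markers were lower, with a median of -1.24, as were 2 of 5 loop of Henle and distal tubule markers. Slc12a3, not called at its brightest probe, was lower at its dimmer probes by -0.79 and -0.89 (adjusted p = 0.012 and 0.0060 in limma). Of 6 nephron progenitor markers, 2 were called higher, Cited1 and Eya1, the latter with 0.17 and no call at a dimmer probe. Of the 6, 5 had a positive change, with a median of 0.43, and 4 had an unadjusted p under 0.05. Six2 gave 0.56 ± 0.12 (adjusted p = 0.056). Of 8 collecting duct and urothelium markers, 1 was lower and 2 higher. None of 7 endothelial, 5 megakaryocyte and erythroid, or 3 podocyte markers was called, with 1, 0 and 0 at an unadjusted p under 0.05 in limma. Of the adrenal and gonad markers, 6 were detected on no array and the 1 tested was not called.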

How the data were processed

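Kidney RNA was measured on Illumina MouseWG-6 v2.0 arrays. Per the file headers, the deposited table holds, by array, a linear intensity and a detection p-value per probe, with no background correction or normalization. A second deposited table holds the authors' log2 values, made with lumi by steps not given in the sources used here. Of 45281 rows, 8 were damaged and left out. The platform annotation gave 1 symbol to 34877 probes, several to 18 and none to 10378.

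Intensities were processed with neqc in limma 3.58.1 (R 4.3.3; offset 16, quantile normalization), and genotype was fitted with lmFit and eBayes with litter as a block, which the study's methods also used, on 2 residual and 4.76 prior degrees of freedom. The offset shrinks changes of dim probes. The labels give each pool its litter, and deviations of same-litter pools correlated by 0.19, 0.18 and 0.14 across probes. The fit was tested on simulated data. It recovered 62% of changes of 1 on the log2 scale and 92% of changes of 2, with 5 false calls. Of 16899 simulated probes, 100 were changed by each of these sizes, whereas 823 probes were called in the data. Changes below 1 were not simulated, so these percentages do not apply to them. A gene that is not called may therefore still have changed. The median SE was 0.12, and the number of arrays limits the precision.

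Members and lists were chosen with earlier results of these data known. All members are named. From the lists of other matricellular genes, receptors and the reelin pathway, called genes are named, and those with the largest absolute change to 4 in all; Vldlr and Lrp8 were added as the reelin receptors after their values were seen. For Reln the 5 genes with the highest correlation are named. Promoters are from RefSeq (GRCm38.p6).

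Alternatives were no replicate block, leaving out each litter, median scaling, no background correction, the authors' values, 2 other detection filters, an offset of 50, an intensity trend and the mean over probes. Median scaling was first run as planned, over all probes. A second version, over tested probes, was added after seeing that result.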

Additional observations from a re-analysis of the deposited data

How the results depend on the processing

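Reln kept its direction and its call under all 13 alternatives. Some of these could not move its fitted change of -2.12, only its SE and adjusted p. They were no replicate block, both other detection filters, the intensity trend and, as Reln had 1 tested probe, the mean over probes. The members called stayed at 2 except when litters were left out, where they ranged from 1 to 2. The genes called numbered 552, and 44 to 538 when a litter was left out. They were 265 where all probes were tested and 865 with an intensity trend; the cause was not tested. Without the replicate block 528 genes and the same 2 members were called, and the other matricellular genes called went from 1 to 2 with Cthrc1. With a litter left out, the change of Sparc ranged from -0.029 to 0.30 at its brightest probe and from -0.051 to 0.28 at the second; both were negative without litter 1, and none of these values was called. Median scaling over all probes called 655 genes and the 2 members, but its fit gave every probe the same SE of 0.18. Scaling over the tested probes was therefore added after seeing the data. It called 489 genes and the 2 members, the dimmer Tnc probe then had an adjusted p of 0.059 and Itgb5 one of 0.059. Slide as a block was not run, since the file headers give no slide. Averaging the probes of a gene took the change of Itgav to 0.36 (adjusted p = 0.12). Testing all probes took the adjusted p of Cd44 to 0.055 and of Itgb5 to 0.10. Dim probes near the background limit what can be said of Thbs1, Postn and Smoc2.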
